A study of Mus musculus with 8 samples.

Results

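A set of 10 genes of the effector and innate-like T cell programmes was examined in CD4SP thymocytes of C57BL/6 mice, sorted cells that carry CD4 but not CD8 and are the last thymic stage of the CD4 lineage. The 10 genes were Nkg7, Prf1, Gzma, Gzmb, Gzmk, Ccl5, Tbx21, Eomes, Ifng and Zbtb16, taken by symbol from the 22180 genes with a probe set of their own, and each had 1 such probe set. The cells came from mice labelled Pggt1b_KO (4 arrays) and from WT mice (4 arrays). Pggt1b encodes the catalytic subunit of protein geranylgeranyl transferase type I, which attaches a lipid of the mevalonate pathway to small GTPases, and the study addressed its part in the egress of thymocytes. How Pggt1b was deleted, in which cells, the age of the mice and whether animals were pooled are details the sources used here do not give. Replicates were numbered in the order of deposit and pair no samples, and no source says whether each is a different animal, so the p-values speak for the spread among these samples only. Values are log2 intensities after RMA, which removes background and equalizes the distribution of probe intensities across arrays before summarizing them by probe set. The array medians of the probe set values still ran from 5.52 to 5.59 log2.

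Cytotoxic lymphocytes kill by releasing granules that hold perforin, which forms pores in the target membrane, and granzymes, serine proteases that enter through them. The T-box factors T-bet, encoded by Tbx21, and eomesodermin, encoded by Eomes, drive this programme together with interferon gamma, the cytokine of type 1 responses. PLZF, encoded by Zbtb16, directs the programme of innate-like T cells such as natural killer T (NKT) cells, which acquire effector functions while still in the thymus. Conventional CD4SP thymocytes are naive, and these genes are known mainly from activated, memory or innate-like cells.

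The genes did not move as a block. Perforin RNA rose and Nkg7 and Zbtb16 RNA fell in Pggt1b_KO cells, 4 further genes were not called, and 3 genes, Gzma, Gzmb and Ifng, lay near background in both genotypes. The Prf1 signal stood 1.51-fold higher, Nkg7 1.78-fold lower and Zbtb16 1.61-fold lower in Pggt1b_KO. The call of Zbtb16 ended under 9 of 18 alternative settings, 5 of them with a single array left out. Those of Prf1 and Nkg7 each ended under 2, and under 0 with a single array left out. Of the 10 genes 7 were tested, and 3 of these were called at an adjusted p under 0.05 (limma, Benjamini-Hochberg), against 13.0% of all 11585 tested genes. Of these 1 was higher in Pggt1b_KO (4.45% of all tested genes were called higher) and 2 were lower (8.53% were called lower). With each array centred on its median the calls over all tested genes were 383 higher and 1321 lower, against 515 and 988 as deposited. The median difference of the 7 tested genes was -0.28 log2, beside -0.03 log2 for all tested genes. At an adjusted p under 0.01 none of the 7 was called (limma, 0 higher and 0 lower), against 3.85% of all tested genes, of which 1.78% were higher and 2.07% lower; 5 of the 7 had an unadjusted p under 0.05, against 29.2%. With no intensity filter Prf1 was called higher and Nkg7 lower, against 4.15% of 22180 genes, of which 1.64% were higher and 2.51% lower. In bulk RNA, fewer cells of a type and less RNA per cell cannot be told apart.

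The upstream sequences are shown for a gene that rose, a gene that fell and a granzyme gene whose arrays were fully separated without a call, so that the proximal promoters can be set beside the values below. They run from 250 bases before to 50 bases after the RefSeq gene start (GRCm38.p6), 5′ to 3′ on the gene's strand. Capitals mark AGGTGTGA (bound by T-box factors), its core GGTGTG, which the longer motif contains, and TGTGGT (bound by RUNX factors), each searched on both strands, so that ACCACA marks TGTGGT on the other strand. The windows are chr10:61297586-61297885 on the plus strand for Prf1, chr7:43436888-43437187 on the plus strand for Nkg7 and chr13:113180916-113181215 on the minus strand for Gzmk.
Prf1: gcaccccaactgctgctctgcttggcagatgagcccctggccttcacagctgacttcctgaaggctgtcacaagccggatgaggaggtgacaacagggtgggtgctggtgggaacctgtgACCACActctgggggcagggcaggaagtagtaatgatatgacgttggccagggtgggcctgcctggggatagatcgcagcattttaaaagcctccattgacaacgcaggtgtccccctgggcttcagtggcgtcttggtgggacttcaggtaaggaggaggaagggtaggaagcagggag
Nkg7: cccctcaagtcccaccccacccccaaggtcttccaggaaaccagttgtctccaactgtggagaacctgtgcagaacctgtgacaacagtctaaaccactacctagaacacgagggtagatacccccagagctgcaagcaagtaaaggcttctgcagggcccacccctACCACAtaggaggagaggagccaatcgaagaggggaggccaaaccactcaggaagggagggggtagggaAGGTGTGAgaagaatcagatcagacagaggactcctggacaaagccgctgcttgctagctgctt
Gzmk: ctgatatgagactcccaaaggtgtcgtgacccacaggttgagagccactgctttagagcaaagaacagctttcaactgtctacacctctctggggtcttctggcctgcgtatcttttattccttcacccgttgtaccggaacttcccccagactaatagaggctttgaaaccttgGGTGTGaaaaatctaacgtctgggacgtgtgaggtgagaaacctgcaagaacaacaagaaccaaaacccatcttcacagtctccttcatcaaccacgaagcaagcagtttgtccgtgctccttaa

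The full T-box motif AGGTGTGA was found in 1 of the 8 promoters at hand, that of Nkg7, where it begins at position -14 relative to the gene start. It is held by 1.28% of 32851 mouse promoter windows of the same length. The core GGTGTG was found at Nkg7 and in the Gzmk window, where it begins at position -75, and in 19.1% of all windows. TGTGGT was found at Nkg7, Prf1, Gzma and Gzmb, with 2 matches at Gzmb, and in 16.8% of all windows. CANNTG, the E-box, was found in 7 of the 8 windows, the exception being Eomes, and in 72.3% of all windows. These are matches of letters and not shown to be bound sites. The promoters of Ccl5 and Zbtb16 were not analysed here.

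As a check of the labels, Pggt1b itself stood at 7.89, 7.57, 7.69 and 7.86 log2 in Pggt1b_KO and at 8.35, 8.38, 8.29 and 8.36 log2 in WT, a difference of -0.59 ± 0.072 (SE, adjusted p = 0.00141, limma). Taken over the tested genes (genes are no replicates of each other), Pearson correlations between arrays were 0.990 to 0.995 within a genotype and 0.985 to 0.990 between genotypes. Of 14 listed CD4SP markers 10 had a probe set of their own, and 0 were called in limma, with 0 at an unadjusted p under 0.05. Their mean log2 level was 11.41 to 11.47 in Pggt1b_KO and 11.47 to 11.49 in WT arrays. The mean of the heat-shock genes Hspa1a and Hspa1b varied widely within both genotypes. It stood at 10.34, 9.79, 4.57 and 8.25 log2 in Pggt1b_KO and at 5.27, 6.36, 8.58 and 6.74 log2 in WT.

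Which of the 10 genes lie near background was judged against 2 levels. The first was the median of all probe set means, 5.56 log2, which also served as the filter for testing. The other was the 95th percentile of 1394 olfactory and vomeronasal receptor genes, sensory receptors not known to be used by thymocytes, at 5.45 log2. Gzma averaged 3.76 log2 in Pggt1b_KO and 3.81 log2 in WT, Gzmb averaged 4.46 log2 in Pggt1b_KO and 4.85 log2 in WT, and Ifng averaged 4.74 log2 in Pggt1b_KO and 4.74 log2 in WT, so that all 3 lay below both levels in both genotypes. Zbtb16 lay close to the filter in Pggt1b_KO alone, with a Pggt1b_KO mean 0.11 log2 above it and a WT mean 0.80 log2 above it. Eomes, Gzmk and Tbx21 averaged between 0.62 and 1.01 log2 above the filter in either genotype. Prf1, Nkg7 and Ccl5 averaged between 1.73 and 3.06 log2 above it. Differences of genes this close to background are compressed, and levels were not compared between genes because probe sets differ in response.

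**Figure D1:**
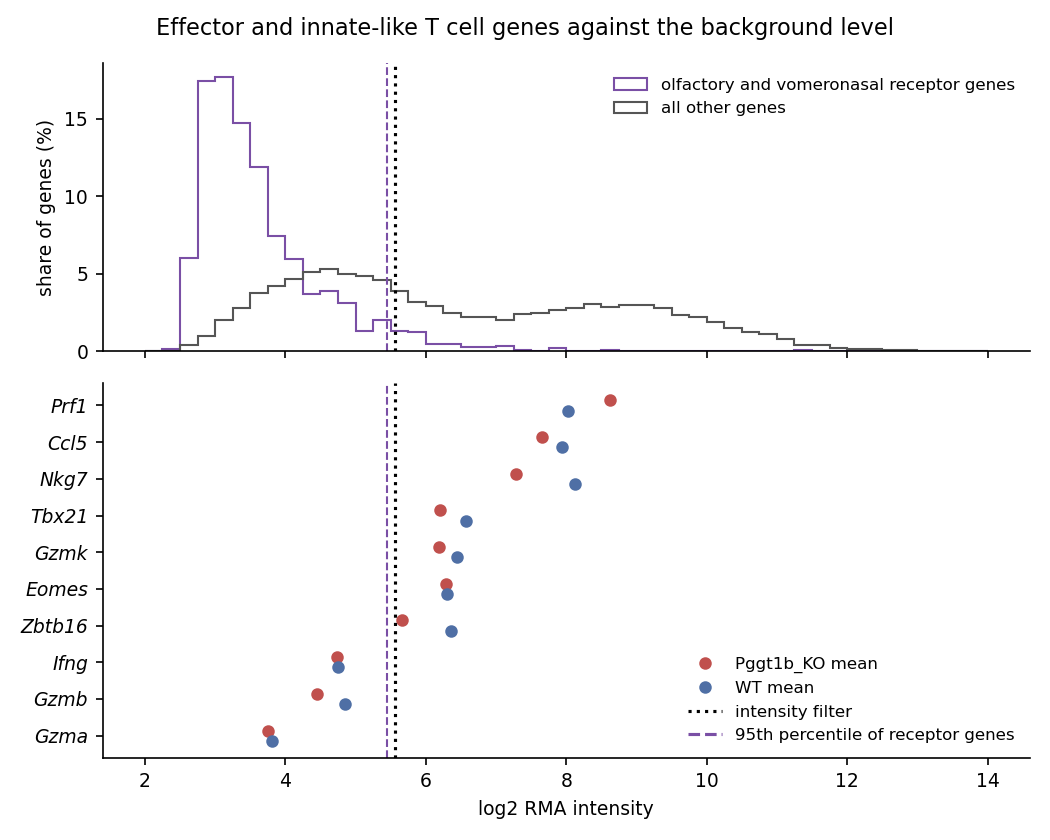
Upper panel, share of genes (%) in each bin of mean log2 RMA intensity for olfactory and vomeronasal receptor genes and for all other genes. Lower panel, mean log2 intensity of the 10 genes in Pggt1b_KO (red) and WT (blue), with the intensity filter (5.56, dotted) and the 95th percentile of the receptor genes (5.45, dashed). Gzma, Gzmb and Ifng lie left of both lines in both genotypes.

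Among the transcription factors, Zbtb16 fell, and T-bet and eomesodermin RNA were not called. Zbtb16 stood at 5.62, 5.81, 5.59 and 5.64 log2 in Pggt1b_KO and at 6.00, 6.48, 5.97 and 6.98 log2 in WT. All Pggt1b_KO arrays lay below all WT arrays, and the WT arrays spread widely, with replicate 4 highest and replicates 1 and 3 lowest. The means were 5.67 ± 0.094 in Pggt1b_KO and 6.36 ± 0.48 in WT (SD, n = 4 each), a difference of -0.69 ± 0.20 (SE), with an adjusted p of 0.0453 (limma). This call ended without any single Pggt1b_KO array or without WT replicate 2 (adjusted p up to 0.106), with no intensity filter (0.0709) and in a fit that included the heat-shock level (0.0919). Without WT replicate 4 the difference was -0.48 log2 (adjusted p = 0.0375).

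Tbx21, which encodes T-bet, stood at 6.12, 6.45, 6.16 and 6.08 log2 in Pggt1b_KO and at 6.41, 6.52, 6.36 and 6.99 log2 in WT. The genotypes overlapped, because Pggt1b_KO replicate 2 lay above WT replicates 1 and 3. The difference was -0.37 ± 0.14 log2 (SE, 95% confidence interval -0.67 to -0.06), and the adjusted p was 0.108 (limma). Without WT replicate 4 it was -0.23 log2 (adjusted p = 0.152). Eomes stood at 6.23, 6.11, 6.40 and 6.40 log2 in Pggt1b_KO and at 6.10, 6.57, 5.94 and 6.57 log2 in WT, where replicates 2 and 4 lay above and replicates 1 and 3 below all Pggt1b_KO arrays. Its difference was -0.01 log2 with a 95% confidence interval of -0.33 to 0.31 (adjusted p = 0.971, limma), and it ran from -0.13 to 0.08 log2 with single arrays left out.

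Of the granule genes, Prf1 and Nkg7 changed in opposite directions. Prf1, which encodes perforin, stood at 8.54, 8.79, 8.64 and 8.50 log2 in Pggt1b_KO and at 7.78, 8.29, 7.83 and 8.20 log2 in WT. Every Pggt1b_KO array lay above every WT array, and WT replicates 2 and 4 came nearest. The means were 8.62 ± 0.13 in Pggt1b_KO and 8.02 ± 0.26 in WT (SD, n = 4 each), a difference of 0.59 ± 0.12 (SE), with an adjusted p of 0.0130 (limma). When single arrays were left out the difference ranged from 0.51 to 0.68 log2 and the adjusted p from 0.00986 to 0.0373, and without Pggt1b_KO replicates 1 and 2 together, the arrays with the highest heat-shock level, the adjusted p was 0.114.

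Nkg7, a membrane protein of cytotoxic granules that is needed for their release, stood at 7.40, 7.07, 7.11 and 7.58 log2 in Pggt1b_KO and at 7.68, 8.19, 8.01 and 8.60 log2 in WT. Again the genotypes did not overlap, and Pggt1b_KO replicate 4 and WT replicate 1 lay closest to each other. The means were 7.29 ± 0.24 in Pggt1b_KO and 8.12 ± 0.38 in WT (SD, n = 4 each), a difference of -0.83 ± 0.18 (SE), with an adjusted p of 0.0179 (limma). Leaving out single arrays gave differences from -0.98 to -0.67 log2 and adjusted p from 0.00867 to 0.0496. Without Pggt1b_KO replicates 1 and 2 together the adjusted p was 0.135.

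The granzymes gave 1 separated but uncalled gene and 2 genes near background. Gzmk, a granzyme with trypsin-like activity, stood at 6.32, 6.09, 6.00 and 6.34 log2 in Pggt1b_KO and at 6.35, 6.42, 6.63 and 6.38 log2 in WT. The arrays did not overlap, yet Pggt1b_KO replicate 4 and WT replicate 1 were almost equal. Its difference was -0.26 ± 0.092 log2 (SE, 95% confidence interval -0.46 to -0.05, adjusted p = 0.0971, limma), and a fit that included the heat-shock level called it (difference -0.33, adjusted p = 0.0437). Gzma, which lies next to Gzmk on chromosome 13 in the RefSeq annotation of GRCm38.p6, ranged from 3.65 to 3.86 log2 in Pggt1b_KO and from 3.75 to 3.88 log2 in WT. No difference in it was detectable at this signal (unfiltered limma fit, difference -0.05, adjusted p = 0.759).

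Gzmb, which encodes the granzyme that activates caspases in target cells, stood at 4.31, 4.59, 4.37 and 4.56 log2 in Pggt1b_KO and at 4.47, 5.10, 4.41 and 5.43 log2 in WT. WT replicates 2 and 4 lay above every Pggt1b_KO array, while WT replicates 1 and 3 lay among them. All 8 values were below the filter, and the unfiltered limma fit gave a difference of -0.40 log2 with an adjusted p of 0.342. Without WT replicate 4 the difference of the means was -0.21 log2. Gzmb belongs to a family of close copies that neighbour it on chromosome 14, with Gzmc next to it, so its probe set may not be fully specific.

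Secreted factors showed no called change. Ccl5, a chemokine made by effector and memory T cells, stood at 7.88, 7.27, 7.68 and 7.78 log2 in Pggt1b_KO and at 7.48, 8.40, 8.03 and 7.83 log2 in WT. The ranges overlapped, and WT replicate 1 lay below all Pggt1b_KO arrays except replicate 2. The difference was -0.28 ± 0.19 log2 (SE, 95% confidence interval -0.70 to 0.14, adjusted p = 0.358, limma). Leaving out Pggt1b_KO replicate 2 gave -0.16, leaving out WT replicate 1 gave -0.43 and leaving out WT replicate 2 gave -0.13 log2, none of them called. Ifng, the cytokine itself, ranged from 4.67 to 4.80 log2 in Pggt1b_KO and from 4.67 to 4.79 log2 in WT, all below the filter, and the unfiltered limma fit gave -0.01 log2 (adjusted p = 0.966).

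**Figure D2:**
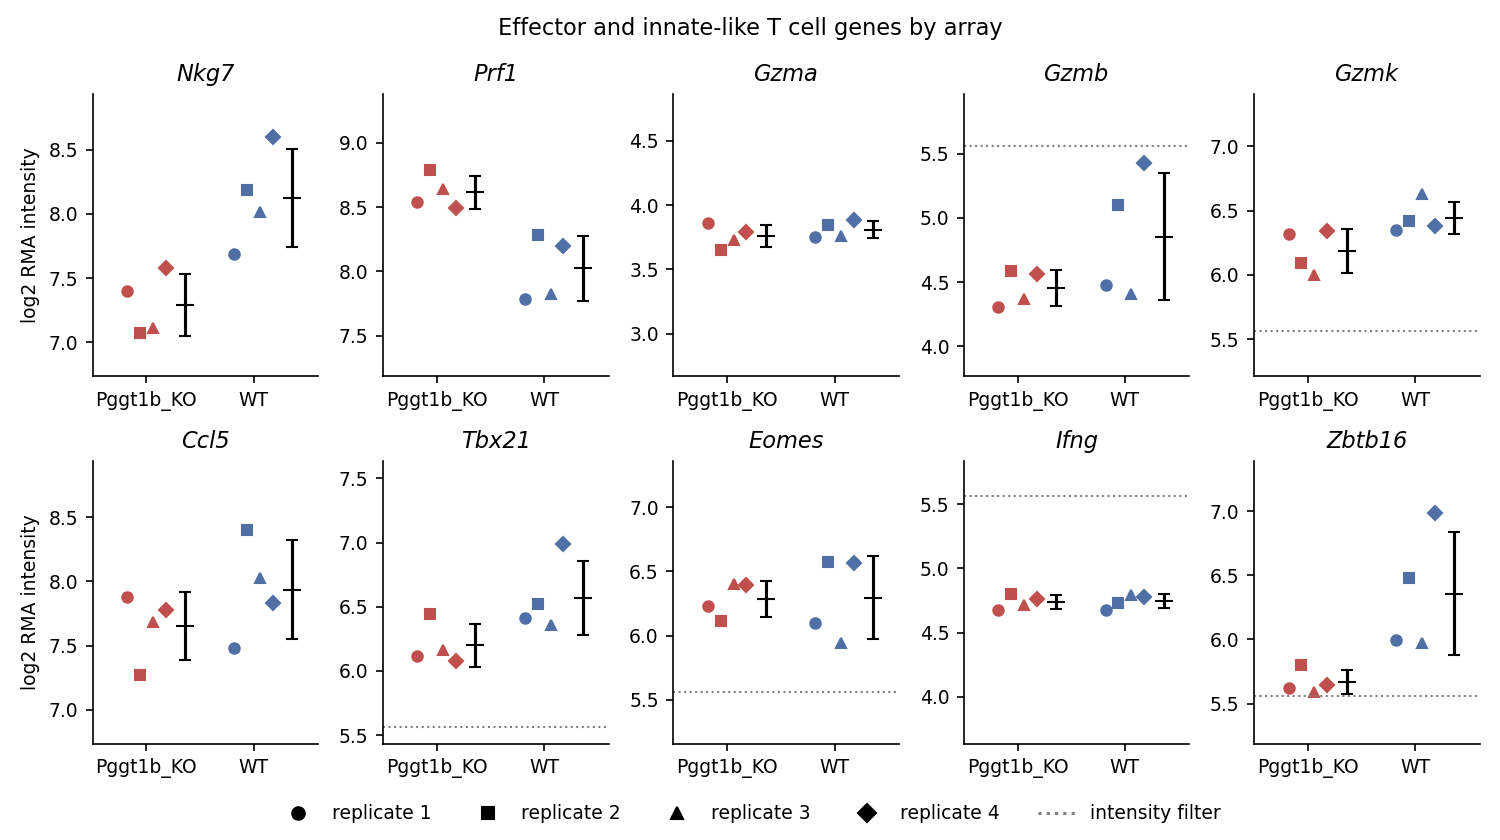
Log2 RMA intensity of each gene in each array, Pggt1b_KO (red) left of WT (blue), with symbols for the replicate number, black bars for the mean ± SD (n = 4 each) and a dotted line for the intensity filter where it falls in the panel. All panels span the same height. Prf1 is higher and Nkg7, Gzmk and Zbtb16 are lower in all Pggt1b_KO arrays than in all WT arrays.

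Without a model across genes, 4 of the 10 genes had fully separated genotypes, namely Prf1 upward and Nkg7, Gzmk and Zbtb16 downward. All 4 were among the 7 tested genes, against 20.3% separated among all tested genes, 6.79% upward and 13.5% downward. Each of the 4 reached 0.0286 in the two-sided exact permutation test of its means, the smallest p that 70 ways of choosing 4 of 8 arrays can give, and the other exact permutation p-values ran from 0.0857 for Tbx21 to 0.943 for Eomes. The mean was lower in Pggt1b_KO for 6 of the 7 tested genes, while 59.1% of all tested genes had a lower mean.

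**Figure D3:**
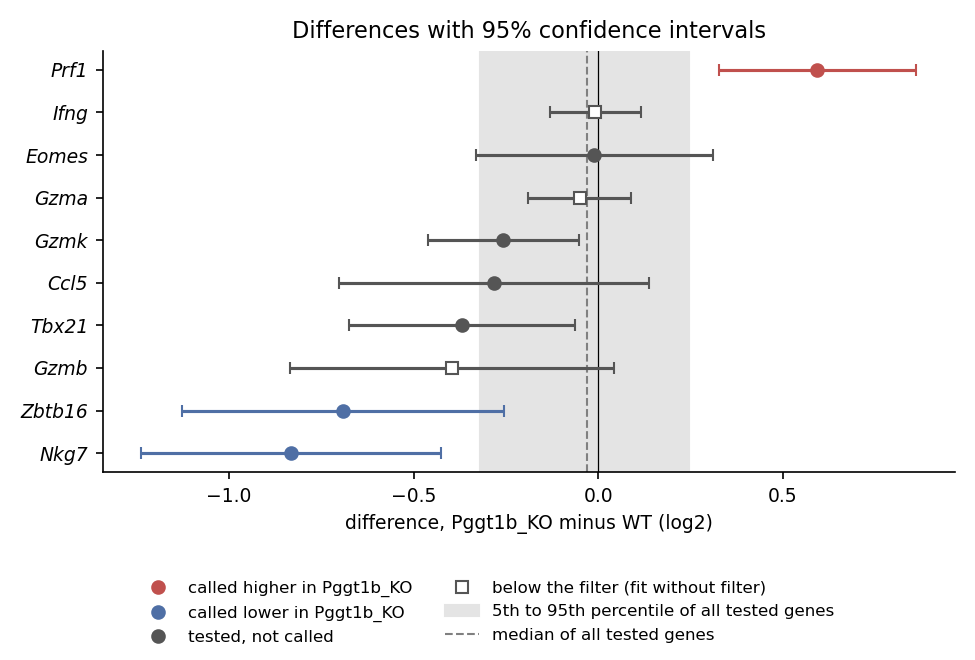
Difference of each gene, Pggt1b_KO minus WT on the log2 scale, with 95% confidence intervals from limma; open squares are genes below the filter, from the unfiltered fit. The grey band spans the 5th to the 95th percentile of all tested genes (-0.32 to 0.25). The point of Prf1 lies to the right of the band, and those of Nkg7, Zbtb16, Gzmb (below the filter) and Tbx21 lie to its left; of these 5 genes Gzmb was not tested and Tbx21 was not called.

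Within a genotype, some of the genes varied together. Values less their genotype mean were compared over the 8 arrays for the 21 pairs of tested genes, as a description, since all points share the same arrays. The highest Pearson r was 0.91, between Tbx21 and Zbtb16, and it was 0.66 without WT replicate 4. Prf1 followed Zbtb16 at r = 0.79 (0.94 without WT replicate 4), although the genotype difference of Prf1 ran the other way. Eomes and Zbtb16 gave 0.73, Nkg7 and Zbtb16 0.72 (0.32 without WT replicate 4), and Nkg7 and Prf1 0.37. Gzmk gave r of both signs, at -0.46 with Tbx21 and -0.45 with Prf1, and at 0.45 with Ccl5 and 0.36 with Nkg7 (0.73 without WT replicate 4). Nkg7 and Tbx21 gave 0.45 and Tbx21 and Eomes 0.43, which became -0.39 and 0.004 without WT replicate 4. The median r over the 21 pairs was 0.45 (0.39 without WT replicate 4), and 16 pairs were above 0. No median over pairs of other tested genes was computed to set beside it.

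Replicate 4 was the highest WT array for 5 of the 10 genes, and WT replicate 1 was the highest for 0. The 5 include Gzma and Gzmb, which lay near background. Of the 7 tested genes WT replicate 4 was highest for 3, WT replicate 2 for 3 and WT replicate 1 for 0. Among all tested genes WT replicate 4 was the highest WT array for 31.0%, WT replicate 2 for 29.5% and WT replicate 1 for 20.8%. Pggt1b_KO replicate 2 was the highest Pggt1b_KO array for 5 of the 10 genes, Prf1, Tbx21, Zbtb16, Gzmb and Ifng, and the lowest for Nkg7, Ccl5, Eomes and Gzma. Of the 7 tested genes it was highest for 3 and lowest for 3. Among all tested genes it was the highest Pggt1b_KO array for 19.3%.

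**Figure D4:**
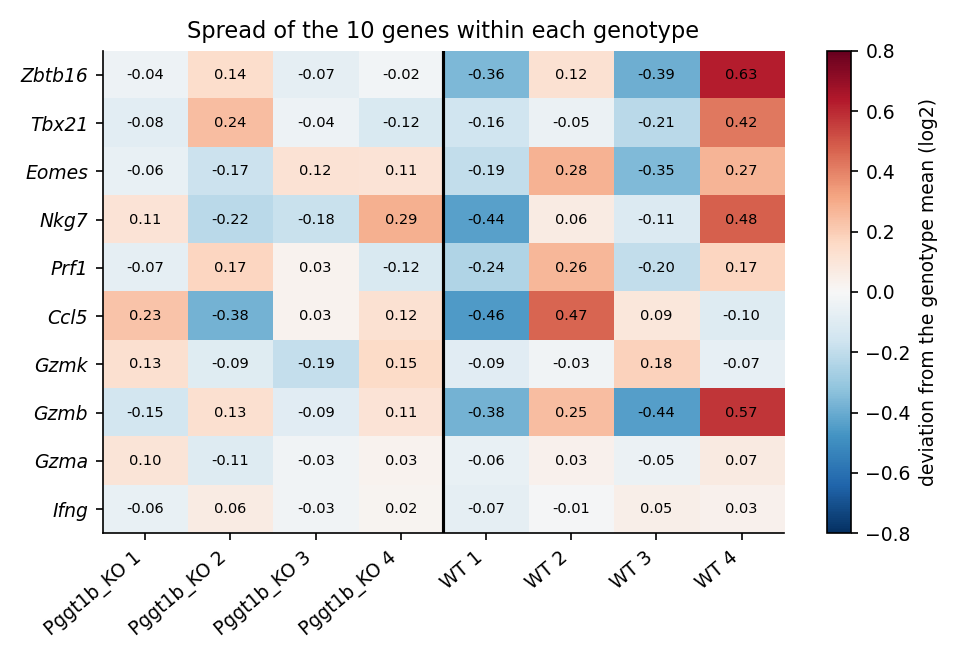
Deviation of each gene from its genotype mean (log2, colour and printed value) in each array, Pggt1b_KO left of the line and WT right of it. In WT replicate 4 Zbtb16, Tbx21, Nkg7 and Gzmb lie 0.42 to 0.63 log2 above the WT mean, and in WT replicate 1 all 10 genes lie below it.

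For each tested gene the 2 tested genes with the most similar deviations were Cops4 and Fam20b for Nkg7 (r = 0.990 and 0.989), Cpne2 and Trabd for Prf1 (0.982 and 0.980), and Zfp777 and Cish for Gzmk (0.941 and 0.933). They were Atp13a2 and Alkbh7 for Ccl5 (0.970 and 0.969), Galnt1 and Suclg1 for Tbx21 (0.981 and 0.967), Zfp830 and Sass6 for Eomes (0.985 and 0.982), and Vps29 and Kpna1 for Zbtb16 (0.986 and 0.985). With 8 arrays and 11585 candidates the highest values are selected and can be high without any link between the genes. No such values were computed for other genes to set beside them. None of these 14 genes was called.

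Genes that act with the 10 were described in 4 further lists, which share some members. These lists were chosen with earlier results of these data known, so their shares of called genes are a description only. Of their 57 distinct tested genes 3 rose and 17 fell, or 35.1%, and the median difference was -0.19 log2, beside 13.0% of all tested genes called and their median of -0.03 log2. Without Pggt1b_KO replicate 1 or WT replicate 2, 11 of them fell. The granule machinery other than the 10 genes was not called in any member. Of 15 tested granule, granule-release and death-ligand genes 0 were called in limma, 4 had an unadjusted p under 0.05, and the median was -0.09 log2. The nearest to a call were Tnfsf10, the death ligand TRAIL, at -0.20 log2 (adjusted p = 0.0546), Lyst, a regulator of lysosome trafficking, at 0.15 log2 (0.0558), the protease inhibitor Serpinb6b at -0.25 log2 (0.0849) and Fasl at -0.14 log2 (0.144). Tnfsf10 was called under 6 and Lyst under 4 of the alternative settings. A further 5 granzyme genes, Gzmc, Gzmd, Gzmf, Gzmg and Gzmn, lay near background.

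The receptors through which interleukin 12 drives T-bet and interferon gamma were lower in Pggt1b_KO. Il12rb2, the signalling subunit, stood at 6.70, 6.22, 7.05 and 6.70 log2 in Pggt1b_KO and at 7.34, 7.46, 7.41 and 7.43 log2 in WT. Il12rb1, the shared subunit, stood at 7.32, 7.38, 7.70 and 7.65 log2 in Pggt1b_KO and at 7.97, 8.21, 7.92 and 8.31 log2 in WT. Neither gene overlapped between the genotypes, and the differences were -0.74 ± 0.14 for Il12rb2 and -0.59 ± 0.11 for Il12rb1 (SE, adjusted p = 0.0104 and 0.00979, limma). Of 17 tested type 1 effector genes 7 fell and 1 rose, with a median of -0.26 log2, beside 8.53% lower and 4.45% higher among all tested genes. Without Pggt1b_KO replicate 2, 4 of the 17 fell. Tnf and Il2rb, a receptor subunit for interleukins 2 and 15, also fell, by 0.77 and 0.49 log2.

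Named after their values were seen, the remaining calls of the type 1 list were falls of the chemokine Xcl1 by 0.62, of the transcriptional inhibitor Id2 by 0.37 and of the interferon gamma receptor subunit Ifngr2 by 0.21 log2, and a rise of Prdm1. Prdm1, which encodes the effector differentiation factor Blimp-1, stood at 6.13, 6.54, 6.09 and 6.23 log2 in Pggt1b_KO and at 5.57, 5.79, 5.79 and 5.89 log2 in WT, a difference of 0.49 ± 0.10 (SE, adjusted p = 0.0165, limma) with no overlap. The call of Xcl1 ended without any single Pggt1b_KO array or WT replicate 1 or 2, that of Id2 without Pggt1b_KO replicate 1, 2 or 3 or WT replicate 3 or 4, and that of Ifngr2 without Pggt1b_KO replicate 2, 3 or 4 or WT replicate 2 or 3. With no intensity filter Xcl1 (adjusted p = 0.0648) and Ifngr2 (0.0709) were not called, and a fit that included the heat-shock level did not call Xcl1 (0.103).

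Of 15 tested innate-like T cell genes other than the 10, 6 fell, 1 rose and 8 were not called, with a median of -0.26 log2, beside 8.53% lower and 4.45% higher among all tested genes. The count of falls was 3 without Pggt1b_KO replicate 1 or 3 or WT replicate 2 or 4, and also 3 in a fit that included the heat-shock level. Klrd1, the CD94 receptor subunit of natural killer (NK) and T cells, rose by 2.90 ± 0.24 log2 (SE, adjusted p = 0.000145, limma). Its WT mean lay below the filter, so this difference depends on the background level. Among genes tied to NKT cell development, Egr2 fell by 0.34, Nr4a1 by 0.31 and Gata3 by 0.26 log2. Slamf6, Sh2d1a and Cd1d1 of the same list, named after their values were seen, differed by 0.12, -0.13 and -0.08 log2 and were not called. The call of Egr2 ended when Pggt1b_KO replicate 3 or 4, or WT replicate 3 or 4, was left out, with an adjusted p of at most 0.0556.

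Named after their values were seen, the other falls were those of Il17rb, a receptor subunit for interleukin 25 carried by a subset of NKT cells, by 0.52 log2, of Sox13 by 0.37 and of Slamf1 by 0.26 log2. Il17rb stood at 9.10, 9.07, 9.41 and 9.45 log2 in Pggt1b_KO and at 9.63, 9.81, 9.57 and 10.11 log2 in WT, with no overlap (adjusted p = 0.0305, limma). Its call ended without Pggt1b_KO replicate 1 or 2 or WT replicate 2, that of Sox13 without Pggt1b_KO replicate 1, 3 or 4 or WT replicate 1, 2 or 4, and that of Slamf1 without Pggt1b_KO replicate 1, 2 or 3 or WT replicate 2, 3 or 4. A fit that included the heat-shock level called none of Il17rb, Sox13 and Slamf1 (adjusted p = 0.0778, 0.0863 and 0.0757), and with no intensity filter Sox13 (0.0572) and Slamf1 (0.0844) were not called. The cytokine genes Il4 and Il17a, the receptor gene Il23r and the killer receptor genes Klrb1c, Klrk1 and Klrc1 lay near background in both genotypes.

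Genes raised in antigen-experienced or recirculating T cells gave 6 falls and 1 rise among 15 tested, with a median of -0.26 log2, beside 8.53% called lower and 4.45% called higher among all tested genes. Cd44 fell by 0.92 log2, Itgb1 by 0.38 and the galectin gene Lgals3 by 0.37 log2, while Crip1, a small LIM-domain protein gene, rose by 0.49 ± 0.081 log2 (SE, adjusted p = 0.00573, limma). Crip1 stood at 11.58, 11.69, 11.50 and 11.81 log2 in Pggt1b_KO and at 11.02, 11.10, 11.22 and 11.29 log2 in WT. Il2rb and Id2 are shared with the type 1 list, and the remaining fall, named after its value was seen, was that of the integrin gene Itgal by 0.26 log2, whose call ended without Pggt1b_KO replicate 1 or WT replicate 2. S100a4, S100a6, Anxa1, Ccr2 and Tigit lay near background. Of these Tigit was called lower in the unfiltered limma fit (difference -0.45 log2, adjusted p = 0.0430), with every array below the filter and no overlap.

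**Figure D5:**
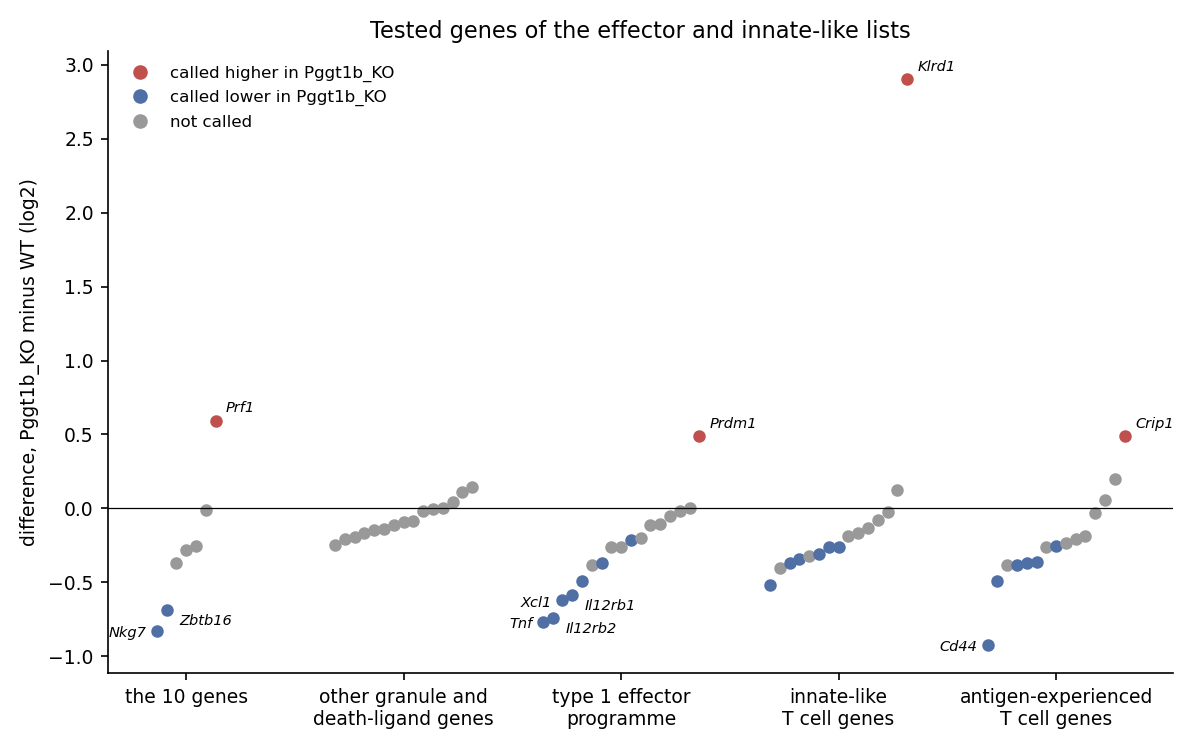
Difference of each tested gene, Pggt1b_KO minus WT on the log2 scale, for the 10 genes (7 tested) and the 4 further lists, each sorted from low to high; red and blue points were called higher and lower, grey points were not called. Calls lie mostly below 0, and Prf1, Prdm1, Klrd1 and Crip1 lie above it.

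Markers of other cells that could carry these RNAs were set beside the results. Of 16 listed NK and innate lymphoid markers 11 had a probe set of their own, and 7 of these lay near background, Ncr1 and Klrb1c included. The mean log2 level of the list was 5.39 to 5.48 in Pggt1b_KO and 5.39 to 5.56 in WT arrays. This mean includes Il7r, at 12.33 log2 in Pggt1b_KO and 12.16 log2 in WT, so it is no gauge of these cells alone. Of 4 tested markers 1 was called, Fcgr3, higher by 0.54 log2, beside 4.45% called higher among all tested genes. Its call ended without Pggt1b_KO replicate 2 or 4 or WT replicate 2 or 4 and in a fit that included the heat-shock level (adjusted p = 0.0769). The WT mean of Fcgr3, 5.42 log2, lay below the filter and its Pggt1b_KO mean was 5.97 log2, so its difference too depends on the background level. Of the 5 tested genes listed as CD8 lineage markers 2 fell, Crtam by 0.78 log2 and Cd8a by 0.74 log2, beside 8.53% of all tested genes. Cd8b1, Runx3 and Nrp1 differed by -0.13, -0.20 and 0.13 log2 and were not called, and Nrp1 is not specific to the CD8 lineage. Cd8b1 averaged 10.46 log2 in Pggt1b_KO and 10.59 log2 in WT, with overlap. The mean of all 5, Nrp1 included, was 7.95 to 8.19 log2 in Pggt1b_KO and 8.29 to 8.54 log2 in WT arrays, without overlap. Cd8a itself stood at 9.09, 8.22, 9.08 and 8.59 log2 in Pggt1b_KO and at 9.28, 9.79, 9.56 and 9.30 log2 in WT, above the filter in every array of these CD4SP cells. The call of Cd8a ended without Pggt1b_KO replicate 2 or 4 or WT replicate 2 or 3, with no intensity filter (adjusted p = 0.0549), with an intensity trend and robust prior (0.0578) and in a fit that included the heat-shock level (0.0900).

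Of 13 listed gamma-delta T cell markers 6 had a probe set of their own and 3 of these lay near background. Those without one include the receptor genes Trdc, Trgc1 and Trgc2. Of 3 tested, Sox13 and Etv5 fell by 0.37 and 0.42 log2, beside 8.53% of all tested genes called lower. Maf differed by -0.32 log2 and was not called (adjusted p = 0.0823, limma). The list mean was 5.78 to 5.90 log2 in Pggt1b_KO and 6.03 to 6.20 log2 in WT. The call of Etv5 ended without Pggt1b_KO replicate 1, 2 or 3 or WT replicate 2, 3 or 4. It also ended with no intensity filter (adjusted p = 0.0726) and with the mean of its probe sets (difference -0.19, adjusted p = 0.134). Of 7 B cell markers 6 lay near background and 0 of 1 tested was called in limma, with 0 at an unadjusted p under 0.05. Of 14 myeloid and dendritic cell markers 9 lay near background and 0 of 4 tested were called in limma, with 1 at an unadjusted p under 0.05. The part of CD8-lineage and gamma-delta T cell markers in the falls of Nkg7 and Zbtb16 was not tested.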

How the data were processed

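The values are log2 intensities of gene-level probe sets as the authors deposited them. The submitters' processing notes name RMA and Affymetrix Expression Console 1.1. Not given in the sources used here are the genome build and any filter or detection call. The number of arrays limits the precision.

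Of 41345 probe sets, 23521 carry 1 gene symbol in a platform annotation that can be old, 1814 carry several and 16010 are not listed. The brightest of a gene's probe sets over all 8 arrays stood for the gene (22180 genes). A gene was tested where this mean reached the median of all probe set means, 5.56 log2, which left 11585 genes. The comparison of Pggt1b_KO with WT used limma 3.58.1 (R 4.3.3; lmFit, then eBayes) with no covariate, two-sided p-values and Benjamini-Hochberg adjustment across the tested genes. A gene is called at an adjusted p under 0.05. Adjusted p-values are from it except where the text names another setting. The fit was tested on simulated data.

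The 10 genes, the other lists and the tests were chosen with earlier results of these data known. Named by rule beyond the 10 genes and Pggt1b are up to 4 tested genes a list, called ones first and then by p, and the 2 genes most alike to each tested gene. Further genes were named outside this rule, among them the remaining called genes of the lists and genes near background. The alternatives were other filters, probe set means, a second quantile normalization, median centring, array weights, another variance prior, the heat-shock level as a covariate, a stricter threshold and arrays left out.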

Additional observations from a re-analysis of the deposited data

Results flagged for a closer look

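Among 108 groups of 4 arrays (54 named genes in each genotype), 3 held an array whose gap to the nearest other array exceeded Dixon's 95% critical share of the group's range, which chance passes in about 1 of 20 groups. Klrd1 stood at 5.90 log2 in WT replicate 4 and at 4.65 to 4.85 log2 in the other WT arrays. Cd5 stood at 12.30 log2 in Pggt1b_KO replicate 3 against 12.19 to 12.20 log2 in the other Pggt1b_KO arrays, and at 12.33 log2 in WT replicate 2 against 12.25 to 12.26 log2 in the other WT arrays. None of the 10 genes was among them.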

How the results depend on the processing

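No paired analysis was possible because the labels give every sample a number of its own. The 10 genes gave 1 call higher and 2 lower, and left-out single arrays gave 1 to 1 higher and 1 to 2 lower. There was 1 lower with no intensity filter. Without both Pggt1b_KO replicates 1 and 2 there were 0 higher and 0 lower, and at an adjusted p under 0.01 there were 0 higher and 0 lower (limma; 5 of the 7 tested genes had an unadjusted p under 0.05 with all arrays). A fit that included the heat-shock level called 2 lower, Nkg7 and Gzmk in place of Nkg7 and Zbtb16. The 4 further lists gave 3 higher and 17 lower, from 3 to 3 higher and 11 to 16 lower with single arrays left out, 5 higher with an intensity trend and robust prior, 1 higher and 1 lower without both Pggt1b_KO replicates 1 and 2, and 3 lower at an adjusted p under 0.01. Over all tested genes 515 were higher and 988 lower, 136 and 122 without both Pggt1b_KO replicates 1 and 2, 364 and 556 with no intensity filter, 350 and 524 in a fit that included the heat-shock level, 206 and 240 at an adjusted p under 0.01, and 302 to 496 higher and 493 to 945 lower with single arrays left out. Prf1 and Nkg7 kept their call in all other settings run, and no called direction reversed. The receptor-gene level in place of the median left 3 genes near background. The fits without both Pggt1b_KO replicates had fewer arrays, and the causes of the other changes were not tested. Signal near background limits what can be said of Gzma, Gzmb, Ifng and Zbtb16.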

Other observations

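Replicate 4 was the highest WT array for 13 of 23 innate-like T cell genes other than the 10, against 31.0% of all tested genes, and for 2 of 11 NK and innate lymphoid markers, counts made after the values were seen. Of the 23 genes 8 were below the filter, as were 7 of the 11 markers, while the share covers tested genes only. Among those markers Klra9 stood at 3.53, 3.96, 3.46 and 3.35 log2 in Pggt1b_KO and at 3.78, 4.55, 4.02 and 5.22 log2 in WT, below the filter in all 8 arrays.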
